A study of Mus musculus with 12 samples.

Results

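Recombined and unrecombined mammary epithelial cells of SmoM2 mice were compared in 4 pairs of RNA libraries, which are 8 of the 12 libraries of the series. Both members of a pair carry the same replicate number in the labels, and the libraries were chosen from the labels, not from measured values. All 8 libraries had the genotype mT-mG/SmoM2;MMTV-Cre. In this design the MMTV promoter, which is active in mammary epithelium, drives the enzyme Cre, and Cre releases expression of SmoM2, an activated form of the membrane protein Smoothened. Cre also turns the membrane reporter mT-mG from red tdTomato to green EGFP. The 4 recombined libraries came from EGFP cells, labelled SmoM2 positive, and the 4 unrecombined libraries from tdTomato cells, labelled SmoM2 negative. The other 4 libraries, from mice with mT-mG and SmoM2 but no Cre, are called wild type here and enter only as levels. The mice were adult females, 9 weeks old, of mixed strain (Swiss Webster, 129X1/SvJ and C57BL/6). The labels do not say how many animals stand behind a library or whether a pair shares animals. In the main fit p-values therefore measure how the within-pair differences spread over these 4 pairs of libraries. No EGFP cells without SmoM2 were measured, so SmoM2, Cre activity and the sorted color cannot be told apart.

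Hedgehog ligands bind the receptor Patched, which then no longer holds back Smoothened. Smoothened passes the signal on to the Gli transcription factors, whose targets include Ptch1, Hhip and Gli1, so that the pathway raises its own inhibitors. The mammary duct has an inner layer of luminal cells, some of which carry hormone receptors, and an outer layer of basal, contractile myoepithelial cells that express p63 and the keratins Krt5 and Krt14. Hedgehog genes act in both the epithelium and the surrounding stroma of the gland.

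The 8 libraries held 19581993 to 34779433 counts. Recombined libraries 3 and 4 had counts in 14256 and 14601 loci and the other 6 libraries in 15691 to 16733. Levels are given as CPM, counts relative to a common library size after TMM scaling (a trimmed mean of the log ratios between libraries), and changes as log2 fold changes of recombined against unrecombined cells ± standard error (SE), fitted with the pair as a block. Epithelial RNA was present throughout: Epcam, an epithelial adhesion molecule, had 702 to 1448 CPM in recombined and 1102 to 1748 CPM in unrecombined libraries. Epcam did not pass in the main fit. It was lower in recombined cells without pair 1 (-0.58, adjusted p = 0.0301) and with pairs 3 and 4 alone (-0.66, 0.0354). Epcam was chosen after its values were seen. Loci with joined names cannot be separated, which for the genes below holds for Smo with AK053708, Gli1 with Arhgap9, Ccnd1 with Oraov1, Itgb4 with Galk1 and AK140292, and 18 others joined with transcript or alias names.

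Of 13382 loci tested, 984 (7.35%) passed an adjusted p of 0.05, of which 569 (4.25% of those tested) were higher and 415 (3.1%) lower in recombined cells. Every count of list members below is to be read beside these shares of all loci. The shares hold for adjusted edgeR calls. Of the same 13382 loci DESeq2 called 1953 and limma-voom 1364, beside which counts by those tools are to be read. For counts of members at an unadjusted p under 0.05 in this comparison, the share of all loci is not given here. Those counts alone therefore do not say whether a list differed from all loci. The median log2 fold change was 1.42 among the higher loci, -2.10 among the lower loci and -0.05 over all loci tested. The falls were the steeper changes: 160 of the 415 lower loci and 54 of the 569 higher loci changed by more than 8-fold. Of the higher loci, 568 were higher in each of the 4 pairs, and of the lower loci 414 were lower in each; over all loci tested, 15% were higher and 15.6% lower in every pair. The loci that passed were chosen by these same differences, so their agreement between pairs is not separate support. In bulk RNA fewer cells of a type and less RNA per cell cannot be told apart, which holds for every change below. With 1 pair left out, the number of loci that passed was 1013 without pair 1, 595 without pair 2, 613 without pair 3 and 557 without pair 4.

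Receptors and inhibitors of Hedgehog signaling rose in recombined cells. Ptch1, the receptor that restrains Smoothened (mm9 chromosome 13, from position 63609643), had 130.0, 451, 330.4 and 794 CPM in recombined libraries 1 to 4 and 40.3, 51.0, 24.3 and 60.2 CPM in unrecombined libraries 1 to 4. Every recombined library lay above every unrecombined one, and the log2 fold change was 3.10 ± 0.33, adjusted p = 0.000688. Hhip, which binds and sequesters Hedgehog ligands (mm9 chromosome 8, from position 82489749), had 9.52, 45.4, 46.1 and 51.7 CPM in recombined libraries 1 to 4 and 3.91, 4.28, 5.24 and 8.77 CPM in unrecombined libraries 1 to 4. Here too the groups did not overlap, and Hhip rose by 2.61 ± 0.37, adjusted p = 0.00312. With pairs 1 and 2 alone neither Ptch1 (2.44, adjusted p = 0.0834) nor Hhip (2.37, 0.0708) passed. In recombined library 1 both genes were at their lowest recombined level.

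**Figure D1:**
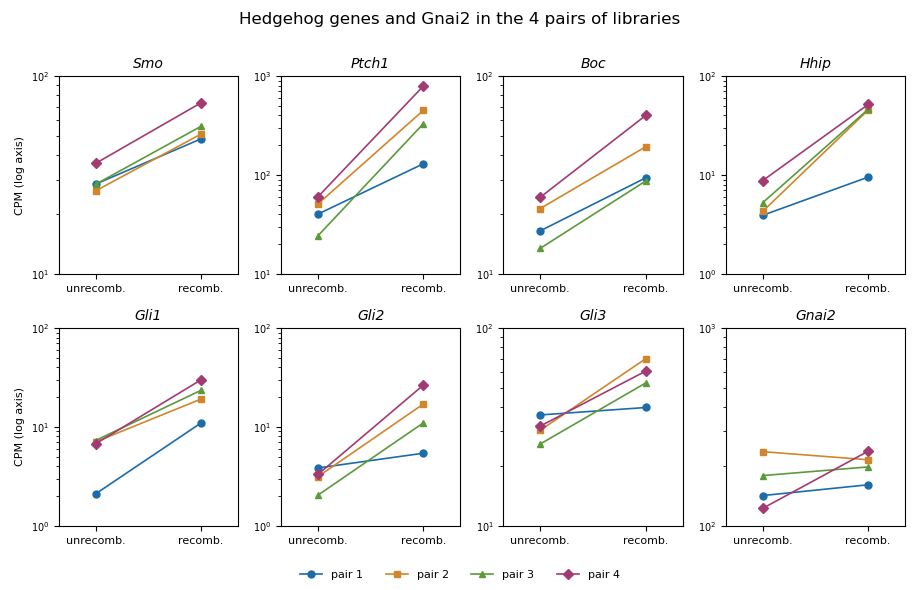
CPM on log axes for 7 Hedgehog genes and Gnai2, with a line joining the unrecombined and recombined library of each pair. The recombined library was the higher one in every pair for these 7 Hedgehog genes, least so in pair 1 for Gli2 and Gli3 (log2 differences of 0.49 and 0.12), while Gnai2 had lines in both directions. Of all 21 tested Hedgehog components, 10 were higher and 2 lower in all 4 pairs.

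Smo itself had 48.2, 50.9, 55.7 and 73.3 CPM in recombined libraries 1 to 4 and 28.4, 26.3, 28.4 and 36.2 CPM in unrecombined libraries 1 to 4, without overlap, and rose by 0.93 ± 0.17, adjusted p = 0.0114. Whether reads of the SmoM2 transgene were counted at this locus is not stated. Gli1, a transcriptional activator and target of the pathway, had 11.0, 19.1, 23.4 and 29.9 CPM in recombined libraries 1 to 4 and 2.10, 7.05, 7.28 and 6.74 CPM in unrecombined libraries 1 to 4. Gli1 rose by 1.91 ± 0.29, adjusted p = 0.0042, from its lowest unrecombined level in library 1. Gli2, the main activator downstream of Smoothened, had 5.42, 17.0, 11.0 and 26.5 CPM in recombined libraries 1 to 4 and 3.84, 3.14, 2.04 and 3.30 CPM in unrecombined libraries 1 to 4 and rose by 2.12 ± 0.46, adjusted p = 0.0248. Gli3, whose product acts largely as a repressor, had 39.6 to 69.9 CPM in recombined and 25.9 to 36.3 CPM in unrecombined libraries; its log2 difference of 0.82 ± 0.22 did not pass (adjusted p = 0.0564), and it passed with DESeq2 (0.00584), with limma-voom (0.0229), without the filter on low counts (0.027) and without pair 1 (0.0193). Smo did not pass without pair 2 or pair 4 (adjusted p = 0.0634 and 0.0577), nor did Gli2 without pair 2, 3 or 4 (0.126, 0.0884 and 0.133).

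The 3 co-receptors for Hedgehog ligands did not move as a group. Boc had 30.6, 43.9, 29.5 and 63.3 CPM in recombined libraries 1 to 4 and 16.5, 21.4, 13.5 and 24.4 CPM in unrecombined libraries 1 to 4 and rose by 1.11 ± 0.19, adjusted p = 0.00902. Cdon, its close relative, had 68.1, 43.6, 56.2 and 67.9 CPM in recombined libraries 1 to 4 and 83.5, 72, 112 and 88.3 CPM in unrecombined libraries 1 to 4. All 4 unrecombined libraries of Cdon lay above the recombined ones, but the difference of -0.60 ± 0.17 did not pass (adjusted p = 0.0682), though it did with DESeq2 (0.0148), limma-voom (0.0448) and edgeR without the filter (0.0468). Gas1, a membrane-anchored co-receptor, had 20.9, 80.3, 69.6 and 202 CPM in recombined libraries 1 to 4 and 32.8, 30.2, 28.9 and 80.1 CPM in unrecombined libraries 1 to 4. It was lower in recombined cells in pair 1 and higher in the other 3 pairs, and did not pass (0.87 ± 0.33, adjusted p = 0.171), though it did with limma-voom (adjusted p = 0.0412) and without pair 1 (0.00188). Boc did not pass without pair 2 or 4 (adjusted p = 0.0508 and 0.0561), nor without the block (0.0664). Cdon, Boc and Gas1 were chosen after their values were seen.

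Of 21 tested Hedgehog components, 7 rose (among them Ptch1, Hhip, Gli1, Boc, Smo and Gli2), 14 did not pass and none fell, against 4.25% of all loci rising. Their median log2 fold change was 0.82. Leaving out pair 1, 2, 3 or 4 gave 9, 4, 6 and 4 members higher. The pair medians over the components were 0.04, 1.03, 1.02 and 1.21, so that pair 1 had the smallest median. Single genes could differ from this: Gli1 had its largest difference in pair 1, at 2.34 against 1.43, 1.68 and 2.14 in pairs 2 to 4. The ligand genes Shh and Ihh were not tested for lack of counts, and the ligand gene Dhh did not pass (0.50 ± 0.90, adjusted p = 0.812). Summed over the list, recombined libraries 1 to 4 had 586, 1079.9, 891 and 1671 CPM, unrecombined libraries 492, 495, 467 and 573 CPM and wild type libraries 428 to 538 CPM. Ptch1 alone held 130.0, 451, 330.4 and 794 CPM of the recombined sums and 40.3, 51.0, 24.3 and 60.2 CPM of the unrecombined sums. The rise of the sums is therefore largely that of 1 gene. Wild type libraries had 35.7 ± 1.5 CPM of Ptch1, 3.50 ± 1.43 CPM of Gli1 and 3.02 ± 1.67 CPM of Hhip (SD, n = 4).

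Among 17 tested Hedgehog targets, 7 rose (41.2%, against 4.25% of all loci) and 1 fell (5.88%, against 3.1%), with a median of 0.59. Of the risers, 4, among them Ptch1, Hhip and Gli1, are also on the component list. Snai2 and Jag2 are also on the list of basal and myoepithelial markers described below. Prdm1, which encodes the repressor Blimp1, had 87.0, 208, 222 and 251 CPM in recombined libraries 1 to 4 and 24.1, 54.2, 26.5 and 40.0 CPM in unrecombined libraries 1 to 4. Its groups did not overlap, and it rose by 2.38 ± 0.22, adjusted p = 0.000373, with pair differences of 1.85, 1.94, 3.06 and 2.65. Snai2, a transcriptional repressor found in basal mammary cells, rose by 2.39 ± 0.32, adjusted p = 0.00255, and the Notch ligand Jag2 by 3.13 ± 0.47, adjusted p = 0.0043. Hsd11b1, an enzyme of glucocorticoid activation, had 0.498, 6.30, 0.0528 and 0.688 CPM in recombined libraries 1 to 4 and 42.6, 39.0, 21.0 and 28.7 CPM in unrecombined libraries 1 to 4. It fell by 5.24 ± 0.76 (adjusted p = 0.00365), a call that did not hold without the filter on low counts (0.0737). Ccnd1, counted with Oraov1, encodes cyclin D1 and had 202 to 396 CPM in recombined and 212 to 411 CPM in unrecombined libraries, with a log2 difference of 0.00 ± 0.13 (adjusted p = 0.991). Hsd11b1 and Ccnd1 were chosen after their values were seen.

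Promoter sequence was looked up for the 10 genes of these lists that rose, since Gli proteins bind DNA at sites with the core ACCACCC. RefSeq promoters of build GRCm38.p6 held 6 of the 10, and 1 of the 6, Gli2, had the core on either strand in the 250 bases before its start; 1289 of 32851 promoters (3.92%) had it. The sequences of 4 of them are shown 5′ to 3′ on the strand of the gene, in capitals where the core or its reverse complement matches, because Ptch1, Hhip and Prdm1 had the lowest adjusted p among risers with an entry and Gli2 had the match, which begins 205 bases before the start. They span chr13:63565736-63565985, chr8:80058009-80058258, chr10:44458749-44458998 and chr1:119053620-119053869 in that order, all on the minus strand. A match describes the letters only, and no match says nothing of binding elsewhere.
Ptch1: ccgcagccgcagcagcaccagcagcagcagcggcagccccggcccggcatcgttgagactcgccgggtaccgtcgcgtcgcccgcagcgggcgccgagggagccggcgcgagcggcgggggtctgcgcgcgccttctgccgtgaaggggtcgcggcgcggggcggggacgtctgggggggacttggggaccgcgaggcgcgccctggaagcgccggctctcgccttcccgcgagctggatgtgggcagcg
Hhip: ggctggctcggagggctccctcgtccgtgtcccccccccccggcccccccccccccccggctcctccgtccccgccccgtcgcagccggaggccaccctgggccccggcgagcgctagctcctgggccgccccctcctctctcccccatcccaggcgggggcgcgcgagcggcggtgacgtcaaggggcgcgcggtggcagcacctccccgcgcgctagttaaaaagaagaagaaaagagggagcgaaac
Prdm1: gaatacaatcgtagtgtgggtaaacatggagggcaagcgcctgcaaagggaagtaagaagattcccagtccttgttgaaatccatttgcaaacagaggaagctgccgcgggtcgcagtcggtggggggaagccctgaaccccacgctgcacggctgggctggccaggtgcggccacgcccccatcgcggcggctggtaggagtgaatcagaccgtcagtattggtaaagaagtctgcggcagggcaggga
Gli2: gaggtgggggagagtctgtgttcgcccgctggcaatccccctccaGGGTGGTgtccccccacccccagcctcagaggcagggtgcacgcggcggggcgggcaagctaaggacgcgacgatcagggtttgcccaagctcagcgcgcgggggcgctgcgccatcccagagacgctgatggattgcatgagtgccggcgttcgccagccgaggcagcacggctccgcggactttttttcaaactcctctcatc

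Gnai2, which encodes the inhibitory G protein subunit named in the title of the series (mm9 chromosome 9, from position 107516468), did not pass. It had 161, 216, 198 and 238 CPM in recombined libraries 1 to 4 and 142, 237, 179 and 122 CPM in unrecombined libraries 1 to 4. The groups overlapped, pair 2 went the other way from the rest, and the log2 difference was 0.29 ± 0.18, adjusted p = 0.409. Its relative Gnai3 had 258 to 339 CPM in recombined and 266 to 332 CPM in unrecombined libraries (-0.01 ± 0.11, adjusted p = 0.977). Of 30 tested genes for Gi proteins and their regulators and effectors, 3 rose (10%, against 4.25% of all loci) and none fell, with a median of 0.10. The risers were Adcy7, an adenylyl cyclase (1.56 ± 0.34, adjusted p = 0.0248), Gnai1, another inhibitory subunit (1.22 ± 0.29, adjusted p = 0.0349), and Pde4b, a phosphodiesterase that breaks down cyclic AMP (0.64 ± 0.14, adjusted p = 0.0251). None of the 3 held in every leave-one-out fit. Adcy7 did not pass without pair 2, 3 or 4 (adjusted p = 0.0598, 0.118 and 0.106), Gnai1 without pair 2, 3 or 4 (0.0553, 0.146 and 0.149), and Pde4b without pair 1 or 4 (0.0681 and 0.111). The count was 3, 1, 1 and 0 without pair 1, 2, 3 or 4, and without the block Gnai1 and Pde4b did not pass (0.0605 and 0.229). Gnai3 was chosen after its values were seen.

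The 12 largest rises were in genes of several kinds. Nat8l, the enzyme that makes N-acetylaspartate, had 62.1, 1710.2, 776 and 813 CPM in recombined libraries 1 to 4 and 0.391, 63.1, 8.05 and 0.50 CPM in unrecombined libraries 1 to 4. The groups overlapped, since unrecombined library 2 lay just above recombined library 1, but the pair differences were 7.06, 4.76, 6.58 and 10.47, and Nat8l rose by 6.93 ± 0.88, adjusted p = 0.00313; without pair 1 the adjusted p was 0.169 and without the filter 0.124. Vwa2, a basement membrane protein, rose by 4.55 ± 0.48, adjusted p = 0.000692, the adhesion molecule Nrcam by 4.42 ± 0.49, adjusted p = 0.000868 and Padi3, an enzyme of hair and skin that deiminates proteins, by 4.23 ± 0.42, adjusted p = 0.000506. Lhx2, a transcription factor of hair follicle stem cells, had 3.08 to 25.4 CPM in recombined and 0 to 1.55 CPM in unrecombined libraries (4.70 ± 0.84, adjusted p = 0.00985; 0.0771 without pair 4). Grp, which encodes gastrin-releasing peptide, was highest in recombined library 3, at 51.0 CPM against 1.49 in library 1 (4.54 ± 0.97, adjusted p = 0.0227; 0.0588 without pair 3, 0.0832 without pair 4 and 0.158 without the filter). Anks1b, a scaffold protein of synapses, rose by 4.38 ± 0.50, Dsg1a, a desmoglein with close paralogs whose reads may be shared, by 4.21 ± 0.85, Col6a4, a collagen VI chain, by 3.94 ± 0.62 and Slco4a1, an organic anion transporter, by 3.87 ± 0.59, with adjusted p of 0.00108, 0.0169, 0.00519 and 0.0044. Dsg1a did not pass without pair 4 (0.0706). Without the block Nat8l, Lhx2, Vwa2, Grp and Dsg1a did not pass (0.24, 0.0707, 0.0676, 0.11 and 0.196).

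The 12 largest falls were in loci at or near 0 in recombined cells, the highest level there being 9.87 CPM, of Lama2. Inmt, a methyltransferase, had no count in any recombined library and 11.1, 14.5, 10.2 and 9.67 CPM in unrecombined libraries. It was at least 399-fold lower in recombined cells, taking 3 counts over the 4 libraries as the floor. Nova1, an RNA-binding splicing factor, had 2 counts in recombined and 968 in unrecombined libraries, a ratio of 449.7 (exact 95% interval 124 to 3719, counting error only). Thbs2, a matricellular thrombospondin, had 0.908, 0.648, 1.37 and 0.162 CPM in recombined libraries 1 to 4 and 134, 66.6, 118 and 44.1 CPM in unrecombined libraries 1 to 4 and fell by 6.96 ± 0.30 (adjusted p = 6.65e-06). Lama2, the laminin chain of muscle and stromal basement membranes, had 0.703, 2.99, 9.87 and 0.850 CPM in recombined libraries 1 to 4 and 517, 249, 251 and 275 CPM in unrecombined libraries 1 to 4. It fell by 7.02 ± 0.77 (adjusted p = 0.00099), or 0.101 without the filter. Mfap4, a microfibril-associated protein, had 0 to 0.108 CPM in recombined and 16 to 45.3 CPM in unrecombined libraries. The phospholipase Pla1a, the kinase gene Prkcb, the potassium channel gene Kcnn3, the extracellular Islr, the transcription factor Tbx15, Ms4a4d and Ifi205, a member of a family of similar interferon-inducible genes, had at most 0.95 CPM in any recombined library and 8.27 to 69.0 CPM in unrecombined libraries. Of these 7, Pla1a did not pass without the filter (0.0552).

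Basal and myoepithelial genes rose together. Of 30 tested markers 25 rose, none fell and 5 (Vcam1, Sparc, Egfr, Actg2 and Igfbp2) did not pass, with a median log2 fold change of 2.23. Several of the risers are counted in other lists too, so those counts are not separate results. Among them are Snai2, Jag2, Nrg1, Lgr6, Cdh3, Lamb3, Col17a1, Itga6, Itgb4 and Ngfr. Trp63, which encodes p63, the transcription factor of basal epithelium, had 197, 289.7, 358 and 504 CPM in recombined libraries 1 to 4 and 20.9, 38.3, 14.2 and 63.4 CPM in unrecombined libraries 1 to 4. No library overlapped, and Trp63 rose by 3.43 ± 0.29, adjusted p = 0.000248. Krt5 had 137, 439.8, 646 and 821 CPM in recombined libraries 1 to 4 and 12, 78.0, 27.9 and 77.7 CPM in unrecombined libraries 1 to 4 and rose by 3.48 ± 0.29, adjusted p = 0.000257; Krt14 rose by 3.19 ± 0.26, adjusted p = 0.000233 and Krt17 by 3.27 ± 0.26, adjusted p = 0.000204. Cdh3, the basal cadherin, had 31.7, 89.7, 91.1 and 98.8 CPM in recombined libraries 1 to 4 and 4.59, 14.3, 10.1 and 12.4 CPM in unrecombined libraries 1 to 4. It rose by 2.90 ± 0.19, adjusted p = 9.34e-05, and the hemidesmosomal collagen Col17a1 by 3.12 ± 0.25, adjusted p = 0.000204.

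Among the 25 were genes of contraction, though the smooth muscle actin gene Actg2 did not pass. Acta2, smooth muscle actin, had 204, 753, 665 and 1388 CPM in recombined libraries 1 to 4 and 53.7, 148, 53.8 and 178 CPM in unrecombined libraries 1 to 4 and rose by 2.71 ± 0.26, adjusted p = 0.000382. Cnn1, calponin, rose by 2.92 ± 0.26, adjusted p = 0.000331 and Myh11, smooth muscle myosin, by 2.48 ± 0.26, adjusted p = 0.000668. Oxtr, the oxytocin receptor through which myoepithelium is made to contract, had 66.0, 206, 158 and 385 CPM in recombined libraries 1 to 4 and 17.3, 47.5, 28.6 and 70.0 CPM in unrecombined libraries 1 to 4. Recombined library 1 lay below unrecombined library 4, but the rise within pairs was even, at 1.92, 2.11, 2.46 and 2.46, and Oxtr rose by 2.24 ± 0.15, adjusted p = 9.34e-05. Leaving out pair 1, 2, 3 or 4 gave 26, 22, 20 and 20 basal markers higher. Smooth muscle genes are shared with pericytes. Of 10 tested pericyte markers none passed as higher and 1 fell, Pdgfrb, which is also on the fibroblast list. The log2 fold change was positive for 5 of the 10, up to 2.37, and 2 were higher and 3 lower in all 4 pairs. The summed level of that list was 288 to 423 CPM in recombined and 343 to 389 CPM in unrecombined libraries. The part of pericytes in the contractile genes was not tested. Krt5, Krt14, Trp63, Acta2, Cnn1 and Myh11 were chosen after their values were seen.

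**Figure D2:**
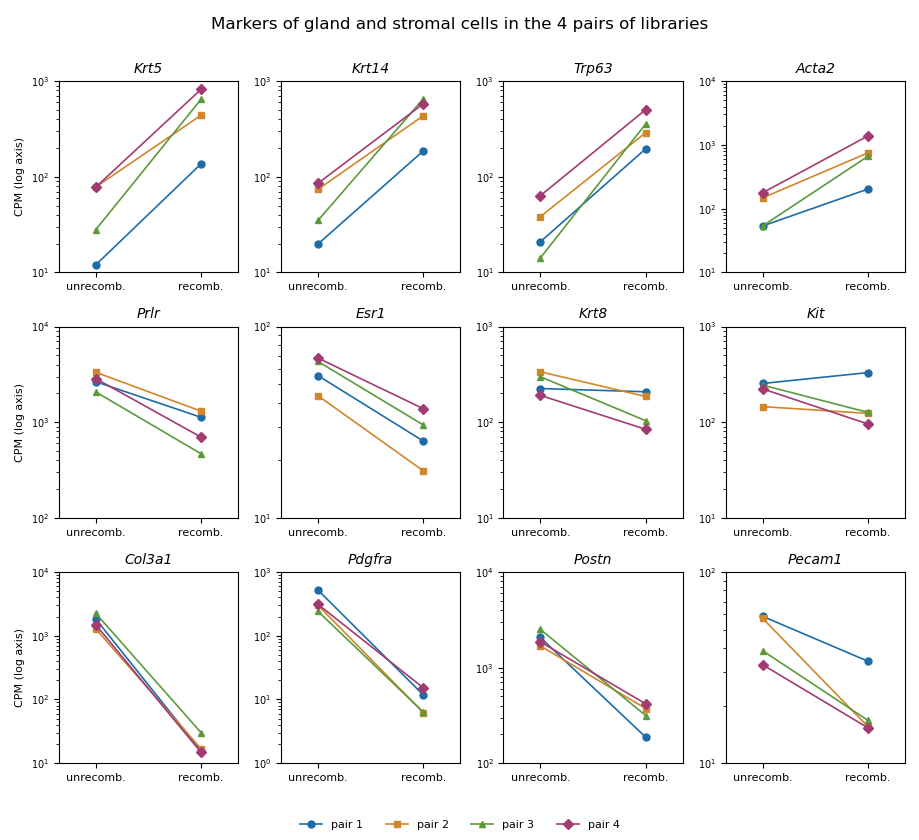
CPM on log axes for 12 marker genes, with a line joining the unrecombined and recombined library of each pair. Basal genes (Krt5, Krt14, Trp63, Acta2) rose and Prlr, Esr1, Col3a1, Pdgfra and Postn fell in every pair, whereas Kit went up in pair 1 and down in the other 3 pairs.

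Many hormone-sensing luminal genes were lower in recombined cells: 11 of 22 tested fell and none rose, against 3.1% of all loci falling, with a median of -1.09. Prlr, the prolactin receptor, had 1126, 1305, 468 and 699 CPM in recombined libraries 1 to 4 and 2654, 3330.2, 2077 and 2862 CPM in unrecombined libraries 1 to 4. The groups did not overlap, and Prlr fell by 1.69 ± 0.17 (adjusted p = 0.000603). Esr1, the estrogen receptor, had 25.2, 17.6, 30.6 and 37.2 CPM in recombined libraries 1 to 4 and 55.4, 43.5, 65.7 and 68.4 CPM in unrecombined libraries 1 to 4, also without overlap, and fell by 1.11 ± 0.18 (adjusted p = 0.00541). Pgr, the progesterone receptor, had 46.9, 125, 19.8 and 48.1 CPM in recombined libraries 1 to 4 and 78.6, 229, 60.8 and 102 CPM in unrecombined libraries 1 to 4. Recombined library 2 was above 3 of the 4 unrecombined libraries, but Pgr was lower within each pair and fell by 1.08 ± 0.17 (adjusted p = 0.00579). The growth factor Areg fell by 1.45 ± 0.21 (adjusted p = 0.0034), the coregulator Cited1 by 1.46 ± 0.21 (0.00381), the surface marker Ly6a by 1.40 ± 0.17 (0.0014) and the fibrinogen chain Fgb by 1.41 ± 0.20 (0.00308). Foxa1, a pioneer factor for the estrogen receptor, had 4.96 to 22.8 CPM in recombined and 29.9 to 56.1 CPM in unrecombined libraries and did not pass (-1.58 ± 0.42, adjusted p = 0.0574), though it did with DESeq2 (0.00109), with limma-voom (0.0333) and without pair 1 or pair 2 (0.0383 and 0.0333). These calls depend on the pairing: without the block 3 of the 22 fell, and Pgr, Areg, Cited1, Ly6a and Fgb did not pass (0.448, 0.149, 0.0707, 0.146 and 0.459). Esr1, Pgr, Cited1 and Foxa1 were chosen after their values were seen.

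Other luminal lists had fewer members past the threshold. Of 16 luminal keratin and junction genes 3 fell, the simple keratins Krt8, Krt18 and Krt7, and none rose. Krt8 had 208, 186, 104 and 84.2 CPM in recombined libraries 1 to 4 and 225, 337, 299 and 191 CPM in unrecombined libraries 1 to 4. Pair 1 differed by -0.11 and pairs 2 to 4 by -0.86 to -1.53, and the fitted fall was 0.92 ± 0.21 (adjusted p = 0.03). Krt18 fell by 0.81 ± 0.20 (0.0414) with a difference of 0.00 in pair 1, and Krt7 by 0.90 ± 0.20 (0.0274). Each of the 3 keratins missed the threshold without pair 2, 3 or 4, at 0.0862, 0.107 and 0.134 for Krt8, 0.127, 0.153 and 0.16 for Krt18 and 0.153, 0.0844 and 0.0874 for Krt7, and without the block (0.18, 0.235 and 0.404). Without pair 1, 6 of the list fell. Of 20 luminal progenitor genes none passed with edgeR (median -0.23; 5 at an unadjusted p under 0.05, 2 with DESeq2 and 2 with limma-voom); Kit, a receptor of progenitors, had 330.2, 124, 127 and 95.7 CPM in recombined libraries 1 to 4 and 254, 146, 244 and 223 CPM in unrecombined libraries 1 to 4, with a log2 difference of -0.51 ± 0.24, adjusted p = 0.272, or 0.0428 without pair 1. The progenitor factor Elf5 had 57.9 to 254 CPM in recombined and 104 to 173 CPM in unrecombined libraries (-0.24 ± 0.22, adjusted p = 0.598), and the smallest p were those of Itga2 (0.66 ± 0.17, adjusted p = 0.0539) and Sox10 (1.18 ± 0.31, adjusted p = 0.0542). Itga2 and Sox10 are the 2 members that each other tool called, and both were higher in recombined cells. Their adjusted p were 0.00856 and 0.00401 with DESeq2 and 0.0252 and 0.0181 with limma-voom. With edgeR without the filter they were 0.0289 and 0.024. Of 16 milk genes the membrane mucin Muc15 rose by 0.76 ± 0.13, adjusted p = 0.00916 (0.0545 without pair 2 and 0.194 without the block), and the lipoprotein lipase Lpl, which stromal and fat cells also express, fell by 4.02 ± 0.24 (adjusted p = 5.24e-05). Muc15 and Lpl were each 6.25% of the milk list, against 4.25% of all loci rising and 3.1% falling. Kit and Elf5 were chosen after their values were seen.

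Fibroblast genes were far lower in recombined cells. Of 29 tested, 25 fell, 1 rose and 3 (Fbn1, Fbln1 and Mmp2) did not pass, with a median log2 fold change of -4.48. Col3a1, a fibrillar collagen, had 15.6, 16.9, 30.2 and 14.8 CPM in recombined libraries 1 to 4 and 1838, 1288, 2253 and 1496 CPM in unrecombined libraries 1 to 4. The groups lay far apart, and Col3a1 fell by 6.50 ± 0.17 (adjusted p = 4.91e-07). Pdgfra, a receptor of fibroblasts, had 11.8, 6.19, 6.33 and 15.2 CPM in recombined libraries 1 to 4 and 519, 301, 241 and 310.2 CPM in unrecombined libraries 1 to 4 and fell by 5.16 ± 0.23 (9.11e-06); Col1a1 fell by 6.19 ± 0.22 (1.69e-06) and the complement inhibitor Serping1 by 3.52 ± 0.19 (2.44e-05). Postn, periostin, had 187, 373, 315 and 418 CPM in recombined libraries 1 to 4 and 2066, 1687, 2509 and 1859 CPM in unrecombined libraries 1 to 4. It fell by 2.69 ± 0.23 (0.000257), and no recombined library was near 0. Fbln2, an extracellular matrix protein, was the member that rose: it had 71.2, 182, 179 and 239 CPM in recombined libraries 1 to 4 and 46.9, 47.1, 29.4 and 35.1 CPM in unrecombined libraries 1 to 4 and rose by 2.0 ± 0.33, adjusted p = 0.00665, or 0.0589 without pair 3 and 0.0664 without the filter. Summed over the list, recombined libraries 1 to 4 had 685, 1280.4, 1466 and 1777 CPM, unrecombined libraries 10864, 7923, 10664 and 8196 CPM and wild type libraries 3092, 2524, 4092 and 5288 CPM. Postn and Fbln2 were chosen after their values were seen.

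Some endothelial genes fell. Of 19 tested, 5 fell and none rose (median -1.29); Pecam1, the vessel adhesion molecule CD31, had 34.1, 15.5, 16.7 and 15.3 CPM in recombined libraries 1 to 4 and 58.6, 57.2, 38.7 and 32.7 CPM in unrecombined libraries 1 to 4 and fell by 1.24 ± 0.23 (adjusted p = 0.0115), and the VEGF receptors Kdr and Flt1 fell by 2.80 ± 0.57 (0.0177) and 1.29 ± 0.27 (0.0196). Leaving out pair 1, 2, 3 or 4 gave 3, 0, 3 and 1 members lower, and no member passed without the block. Pecam1 had 0.0542 without pair 2, Kdr 0.1 and 0.0737 without pair 2 and 4, and Flt1 0.134, 0.0607 and 0.0755 without pair 2, 3 and 4. No macrophage and dendritic marker of 14 tested passed with edgeR (2 at an unadjusted p under 0.05, 1 with DESeq2, 0 with limma-voom; median -1.08; summed level 17.9 to 30.0 CPM in recombined and 21.5 to 48.4 CPM in unrecombined libraries), the smallest p being those of H2-Aa (-1.86 ± 0.56, adjusted p = 0.0901) and Ctss (-1.92 ± 0.83, adjusted p = 0.231). Lymphocyte genes summed to 3.54 to 12 and 4.10 to 11.1 CPM, skeletal muscle genes to 3.32 to 7.56 and 2.92 to 9.38 CPM and erythroid genes to 2.43 to 8.86 and 1.40 to 4.84 CPM, in recombined and unrecombined libraries respectively, with no member past the threshold in edgeR among 4, 3 and 2 tested and 0, 1 and 0 at an unadjusted p under 0.05 (DESeq2 called 1 muscle gene). Fat cell markers summed to 69.6 to 187 and 217 to 335 CPM, with 1 of 7 tested lower (Lpl) and 1 higher (Ucp1), and nerve sheath markers to 193 to 332 and 205 to 237 CPM, with 1 of 11 higher (Ngfr, a receptor that basal cells also express). The part of other cell types in the changes of single genes was not tested.

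**Figure D3:**
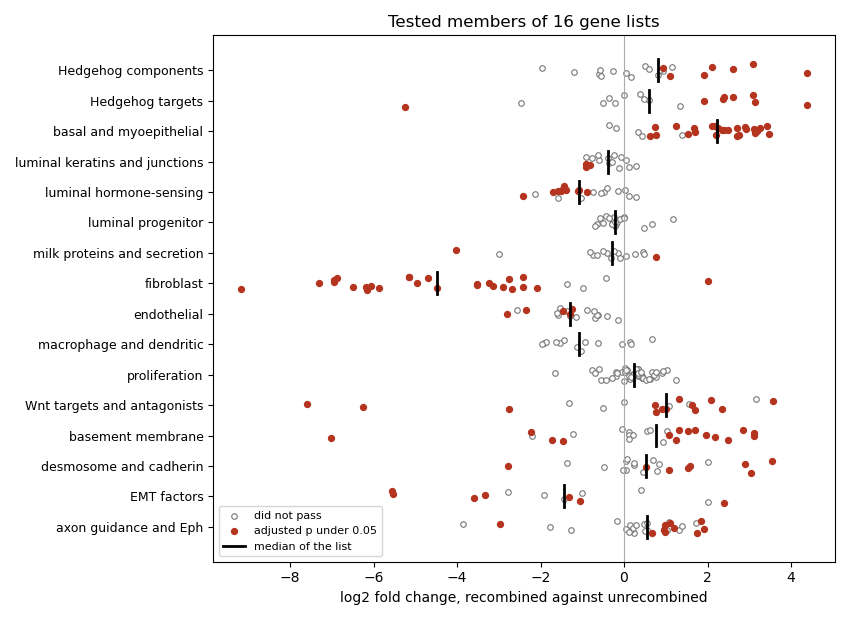
Log2 fold changes of the tested members of 16 gene lists, with filled points for members past an adjusted p of 0.05, open points for the rest and a bar at each list's median. Basal markers lie mostly to the right of 0 (25 of 30 passed) and fibroblast markers to the left (25 of 29 passed), while no member of the proliferation or luminal progenitor list passed.

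Of 19 tested Wnt targets and antagonists, 10 rose and 3 fell, with a median of 1.01. Wif1, a secreted Wnt inhibitor, had 84.1, 266, 378 and 379.8 CPM in recombined libraries 1 to 4 and 10.6, 35.6, 12.8 and 32.9 CPM in unrecombined libraries 1 to 4. It rose by 3.56 ± 0.32, adjusted p = 0.000322, without overlap, and wild type libraries had 6.16 ± 3.04 CPM (SD, n = 4). The stem cell receptor Lgr6 had 42.4 to 100.3 CPM in recombined and 15.5 to 26.7 CPM in unrecombined libraries and rose by 1.70 ± 0.19, adjusted p = 0.000926. Of the other antagonists Sfrp2 fell by 2.76 ± 0.30 (adjusted p = 0.000703) and Dkk2 by 6.25 ± 0.78 (0.00174); Dkk2 had 0 to 0.486 CPM in recombined and 4.15 to 21.2 CPM in unrecombined libraries. Left-out pairs 1 to 4 gave 12, 6, 8 and 6 members higher, and 3 rose without the block. Among 21 ligands and receptors 5 rose and none fell. Fzd7, a Frizzled receptor of basal mammary cells, had 211, 304, 498 and 541 CPM in recombined libraries 1 to 4 and 75.8, 75.8, 75.8 and 125 CPM in unrecombined libraries 1 to 4 and rose by 2.08 ± 0.19, adjusted p = 0.000347. Fzd1 rose by 1.32 ± 0.25, adjusted p = 0.0132, or 0.0602 and 0.074 without pair 3 and 4, and that list had 3, 3, 2 and 1 members higher without pair 1, 2, 3 or 4.

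The Notch genes that rose were ligands. In the Notch list 3 of 20 rose and none fell. Dll1 had 52.0, 73.2, 83.0 and 61.1 CPM in recombined libraries 1 to 4 and 8.51, 16.6, 8.34 and 8.54 CPM in unrecombined libraries 1 to 4 and rose by 2.72 ± 0.24, adjusted p = 0.000289; Jag2 is given above, and Jag1 rose by 1.61 ± 0.30, adjusted p = 0.0118, or 0.0538 without pair 2. Of 29 BMP and TGF-beta genes 6 rose and none fell. Id4, an inhibitor of helix-loop-helix factors in basal cells, had 27.8, 56.2, 24.1 and 55.7 CPM in recombined libraries 1 to 4 and 5.98, 9.42, 2.92 and 8.84 CPM in unrecombined libraries 1 to 4 and rose by 2.62 ± 0.23, adjusted p = 0.00031. The ligand Bmp7 rose by 2.34 ± 0.31, adjusted p = 0.00225, the activin antagonist Fst by 2.20 ± 0.29, adjusted p = 0.00251 and the matrix protein Ltbp2 by 1.77 ± 0.26, adjusted p = 0.00417. Pairs 1 to 4 left out in turn gave 6, 4, 4 and 4 members higher. Of 23 ErbB and FGF genes 3 rose (13.0%, against 4.25% of all loci) and 2 fell (8.70%, against 3.1%). Nrg1, the neuregulin that binds ErbB receptors, rose by 1.67 ± 0.21, adjusted p = 0.00168, and the ERK targets Dusp6 and Etv5 by 0.90 ± 0.13, adjusted p = 0.00333, and 1.41 ± 0.20, adjusted p = 0.00376; Areg and the stromal ligand Fgf10 fell.

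Basement membrane genes changed in both directions. Of 26 tested, 11 rose and 4 fell. Lama1, a laminin chain, had 97.6, 173, 170.2 and 313 CPM in recombined libraries 1 to 4 and 13.6, 23.4, 14.9 and 33.2 CPM in unrecombined libraries 1 to 4. It rose by 3.12 ± 0.17, adjusted p = 2.44e-05, with pair differences of 2.83, 2.88, 3.51 and 3.23. Chains of laminin-332, which anchors epithelial hemidesmosomes, rose too: Lama3 by 2.5 ± 0.23, adjusted p = 0.000382 and Lamb3 by 2.18 ± 0.20, adjusted p = 0.000334. The falls were Lama2, given above, Lama4, Nid1 and Nid2. Leaving out pair 1, 2, 3 or 4 gave 16, 8, 8 and 8 members higher and 4, 4, 4 and 4 lower.

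Among 21 desmosome and cadherin genes 7 rose (33.3%), 1, the mesenchymal cadherin Cdh11, fell (4.76%, against 3.1% of all loci) and 13 did not pass. Perp, a p63 target of desmosomes, had 148, 442, 316 and 448 CPM in recombined libraries 1 to 4 and 57.4, 172, 76.1 and 171 CPM in unrecombined libraries 1 to 4 and rose by 1.54 ± 0.15, adjusted p = 0.000459. Plakophilin 1 (Pkp1) rose by 1.59 ± 0.23, adjusted p = 0.00363 and desmoplakin (Dsp) by 1.09 ± 0.16, adjusted p = 0.00375. Perp and Dsp did not pass without the block (0.0865 and 0.088), where 2 members rose, and left-out pairs 1 to 4 gave 5, 5, 4 and 6 higher. Of 17 integrin genes 5 rose and none fell, led by Itga9 (1.46 ± 0.24, adjusted p = 0.0067); the laminin receptor subunits Itga6 and Itgb4 rose by 0.62 ± 0.12, adjusted p = 0.0138, and 1.25 ± 0.24, adjusted p = 0.0146. Itga6 did not pass without pair 2, 3 or 4 (0.0783, 0.0793 and 0.0675) nor Itgb4 without pair 3 or 4 (0.0785 and 0.066), both missed the threshold without the block (0.0643 and 0.0634), and the count was 6, 3, 1 and 1 without pair 1, 2, 3 or 4. Of 13 genes of epithelial-mesenchymal transition 6 fell and 1 rose. The fibronectin gene Fn1, which fibroblasts express strongly, had 3.72, 14.3, 18.3 and 19.5 CPM in recombined libraries 1 to 4 and 537, 441, 777 and 579 CPM in unrecombined libraries 1 to 4 and fell by 5.56 ± 0.38 (adjusted p = 0.000108). The transcription factor genes Zeb2 and Tcf4 fell by 3.32 ± 0.26 (0.000173) and 1.31 ± 0.16 (0.00155), and Snai2 was the riser.

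Of 31 axon guidance and Eph genes 9 rose (29.0%) and 1 fell (3.23%, against 3.1% of all loci). Efnb2, the ligand ephrin-B2, had 112, 269, 247 and 205 CPM in recombined libraries 1 to 4 and 59.1, 126, 98.0 and 75.5 CPM in unrecombined libraries 1 to 4. It was higher in each pair although its groups overlapped, and rose by 1.2 ± 0.14, adjusted p = 0.00106 (0.0516 without the block). The semaphorins Sema3c and Sema5a rose by 1.92 ± 0.26, adjusted p = 0.00254, and 1.74 ± 0.24, adjusted p = 0.00313, and Nrp1, a semaphorin and VEGF receptor of stromal and vessel cells, fell by 2.97 ± 0.30 (0.000585). Left-out pairs 1 to 4 gave 10, 5, 6 and 5 guidance members higher. Of 27 ion channel genes 5 rose (18.5%) and 1 fell (3.70%, against 3.1% of all loci). Nalcn, a sodium leak channel, had 31.3, 66.6, 67.9 and 80.6 CPM in recombined libraries 1 to 4 and 3.81, 9.19, 2.64 and 7.67 CPM in unrecombined libraries 1 to 4 and rose by 3.47 ± 0.33, adjusted p = 0.000382; the potassium channel genes Kcnq5 and Kcnmb1 rose by 2.91 ± 0.40, adjusted p = 0.00269, and 3.17 ± 0.46, adjusted p = 0.00375. With pair 1, 2, 3 or 4 left out, 5, 4, 3 and 3 channel genes rose. Among 26 lineage factors 5 rose and none fell, led by Id4 and by Bcl11b (3.43 ± 0.42, adjusted p = 0.00152), a regulator of basal mammary cells, and left-out pairs 1 to 4 gave 5, 4, 4 and 3.

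Chemokine and cytokine genes went both ways, with 4 of 18 higher and 2 lower. Cxcl14, an epithelial chemokine, had 119, 154, 128 and 105 CPM in recombined libraries 1 to 4 and 19.6, 38.1, 18.6 and 15.8 CPM in unrecombined libraries 1 to 4 and rose by 2.53 ± 0.18, adjusted p = 0.000119, and the CXCL12 receptor Cxcr7 rose by 1.34 ± 0.22, adjusted p = 0.00595. Il33, an alarmin cytokine, had 8.0, 27.9, 82.8 and 11.1 CPM in recombined libraries 1 to 4 and 14.2, 47.8, 274 and 29.8 CPM in unrecombined libraries 1 to 4. Pair 3 held the highest level of each group, so that the groups overlapped, while Il33 was lower in recombined cells in every pair (-1.19 ± 0.20, adjusted p = 0.00795; 0.0588 without pair 3 and 0.584 without the block). Left-out pairs 1 to 4 gave 2, 3, 2 and 3 members higher. Of 22 immediate early genes 5 rose and none fell: Egr3 by 1.58 ± 0.19, adjusted p = 0.00138, the cytokine feedback inhibitor Socs3 by 1.51 ± 0.25, adjusted p = 0.007 and Myc by 0.76 ± 0.13, adjusted p = 0.00926, Myc not passing without the block (0.0662). Fos and Jun were among the 17 that did not pass, and 4, 3, 4 and 3 rose without pair 1, 2, 3 or 4. In the interferon and MHC class I list 3 of 29 fell and none rose, led by B2m, the MHC class I light chain (-0.77 ± 0.13, adjusted p = 0.00738, or 0.286 without the block); the numbers without pair 1, 2, 3 or 4 were 8, 1, 2 and 2. Of 23 genes of glycolysis and hypoxia 2 rose (8.70%, against 4.25% of all loci), the carbonic anhydrase Car9 (2.64 ± 0.40, adjusted p = 0.0042; 0.128 without the block) and Vegfa (0.90 ± 0.17, adjusted p = 0.0118; 0.0722 without pair 3 and 0.218 without the block). No gene of 19 for cholesterol synthesis passed with edgeR (2 at an unadjusted p under 0.05, 2 with DESeq2 and 1 with limma-voom), and Sc4mol, a sterol oxidase, had -1.08 ± 0.40, adjusted p = 0.158.

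None of 45 tested proliferation genes passed with edgeR, and the median log2 fold change was 0.24. Mki67, the antigen Ki67 of dividing cells, had 35.3, 45.9, 11.3 and 111 CPM in recombined libraries 1 to 4 and 19.0, 18.6, 18.7 and 172 CPM in unrecombined libraries 1 to 4. The recombined library was higher in pairs 1 and 2 and lower in pairs 3 and 4, and the log2 difference was 0.21 ± 0.35, adjusted p = 0.793. Top2a, the topoisomerase of dividing cells, had 19.7, 20.4, 25.3 and 89.5 CPM in recombined libraries 1 to 4 and 9.25, 11.3, 10.8 and 96.1 CPM in unrecombined libraries 1 to 4 (0.76 ± 0.25, adjusted p = 0.117), and Ccnb2, a mitotic cyclin, had 3.20 to 19.5 CPM in recombined and 2.66 to 8.24 CPM in unrecombined libraries (1.25 ± 0.46, adjusted p = 0.156). At an unadjusted p under 0.05, 2 members differed; 2 passed with DESeq2 and 0 with limma-voom. Both libraries of pair 4 were high in dividing-cell genes. Mki67 was chosen after its values were seen.

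Deviations of same-numbered libraries from their group means correlated with r of 0.243, 0.396, 0.250 and 0.314 across loci, which are not independent. Over the 9684 tested loci whose mean log2 CPM reached 2, the median share of the variation between the 8 libraries was 48.3% with the pair, 15.8% with the color and 23.1% with neither, where the terms hold 42.9%, 14.3% and 42.9% of the degrees of freedom. Among the 910 of these loci that passed, which were chosen by that same difference, the shares were 19.6%, 70.8% and 6.41%. With the block 984 loci passed and without it 532, of which 516 passed in both fits and none changed sign.

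Of the 569 higher loci 399 had all recombined libraries above all unrecombined ones (5.8% of all loci tested did), and of the 415 lower loci 298 had them below (5.61%). That left 170 higher and 117 lower loci whose groups overlapped. All the higher and lower loci were chosen by differences between these same libraries. Without the block 18 of those 170 and none of those 117 passed. Oxtr, Efnb2, Perp, Pgr, Il33, Areg, Fgb and Ly6a, all described above, are among the overlapping loci. Fgb, for instance, had 202, 151, 32.8 and 34.1 CPM in recombined libraries 1 to 4 and 387, 324, 91.9 and 151 CPM in unrecombined libraries 1 to 4: within each color pairs 1 and 2 were higher than pairs 3 and 4, and the fall was -0.94, -1.10, -1.48 and -2.15 from pair to pair.

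Some genes were abundant in 1 or 2 pairs alone. The salivary protein gene Bpifa2 (listed as Psp) had 672, 9088, 0.106 and 0 CPM in recombined libraries 1 to 4 and 700.4, 39807, 0.0352 and 0.167 CPM in unrecombined libraries 1 to 4. It was high in both libraries of pair 2, more so in the unrecombined one, lower in both of pair 1 and near 0 in pairs 3 and 4. Summed over 23 salivary gland genes, recombined libraries 1 to 4 had 1343, 21606, 72.2 and 51.6 CPM and unrecombined libraries 1427, 95928, 80.3 and 69.4 CPM; 13 were tested and none passed with edgeR, 5 had an unadjusted p under 0.05, and 2 passed with DESeq2 and 8 with limma-voom. The median log2 difference of the tested salivary genes was -0.06, -1.87, 0.37 and 0 in pairs 1 to 4. The casein gene Csn2 had 312, 0, 0.106 and 0.162 CPM in recombined libraries 1 to 4 and 224, 0, 0.809 and 1.40 CPM in unrecombined libraries 1 to 4, so that it was expressed in pair 1 alone at more than 2 CPM, and Csn1s1, another casein, had 198, 0.288, 1.00 and 1.78 CPM in recombined libraries 1 to 4 and 138, 0.111, 3.62 and 6.97 CPM in unrecombined libraries 1 to 4. The part of these transcripts in the results was not tested beyond leaving out each pair: without pair 2, 595 loci passed, and 22 basal markers rose and 24 fibroblast markers fell. Bpifa2, Csn2 and Csn1s1 were chosen after their values were seen.

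**Figure D4:**
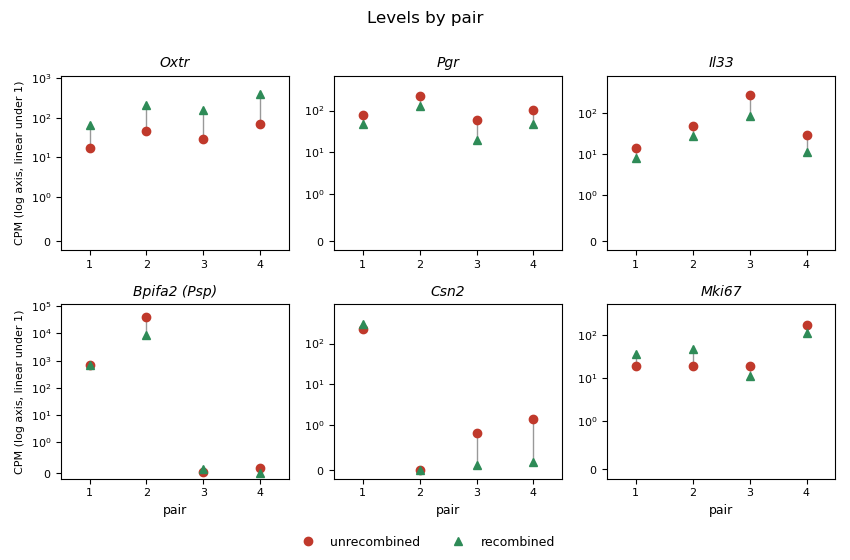
CPM of 6 genes by pair, on axes that are logarithmic above 1 and linear below, with triangles for recombined and circles for unrecombined libraries. For Oxtr, Pgr and Il33 the direction was the same in all 4 pairs although the levels of the groups overlapped. Csn2 was high in both colors of pair 1, Mki67 in both of pair 4 and Bpifa2 in both of pair 2 and, at lower levels, of pair 1.

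The change from unrecombined to recombined cells differed in size between pairs. Over the 569 higher loci the median log2 difference was 0.91 in pair 1, 1.25 in pair 2, 1.71 in pair 3 and 1.59 in pair 4, and over the 415 lower loci -2.01, -1.98, -2.35 and -2.07; these loci were chosen by the same differences. In the labels pairs 1 and 2 have library numbers of an earlier series than pairs 3 and 4, and what the numbers stand for is not said. A test of the difference in change between pairs 1 and 2 and pairs 3 and 4 called 0 of 13382 loci in edgeR, with 880 (6.58%) at an unadjusted p under 0.05; DESeq2 called 119, limma-voom 0 and edgeR without the filter 10. Among the 4 smallest p were those of Peg10, an imprinted gene with 3.87, 3.74, 0 and 0 CPM in recombined and 12.1, 13.9, 9.46 and 11.0 CPM in unrecombined libraries, of Lyve1, a lymphatic vessel gene whose pair differences were -3.33, -3.25, 1.86 and 1.82, and of Mylk, the smooth muscle myosin kinase (1.32, 1.53, 3.24 and 2.76), each with an adjusted p of 0.479. Over all pairs Mylk rose by 2.21 ± 0.31, adjusted p = 0.00313 (0.0866 without the filter).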

How the data were processed

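RNA was sequenced from mouse mammary cells sorted by color. The submitters' processing notes name STAR, HTSeq 0.3.1 and the build mm9 for the authors' steps; options, strand setting and annotation are not given in the sources used here, so antisense and overlapping genes cannot be told apart. The authors deposited raw read counts per locus, in 36635 entries. The 20114 entries that name 1 locus were used, of which 3266 join several symbols; entries that name several loci held 0.0617% to 0.101% of counts.

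Loci that passed filterByExpr of edgeR 4.0.16 (R 4.3.3) numbered 13382. Counts were TMM-scaled and tested with robust quasi-likelihood F tests, two-sided, with terms for pair and color. Benjamini-Hochberg adjustment ran over these loci, with a threshold of 0.05, and the code was tested on simulated data. Libraries were paired by the replicate number in the labels. As a check on the same counts, deviations of same-numbered libraries correlated with r from 0.243 to 0.396, above the minimum of 0.1 in every pair. Standard errors are the fold change over the square root of F. Pair differences use a prior count of 2.

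Named genes are Smo, Ptch1, Gli1, Gli2, Gli3, Hhip and Gnai2, the 12 largest rises and 12 largest falls past the threshold (mean log2 CPM of at least 2, same direction in every pair), up to 4 called members of each of 36 lists or 2 of a list with none, and the 4 smallest p of the difference between number series; a few genes under this rule are not reported here. The genes and lists were chosen with earlier results of these data known. Alternatives were no block, all 12 libraries, other scalings, DESeq2 1.42.0, limma-voom 3.58.1, no and stricter filters (1 CPM in 4 libraries), several-locus entries kept, each pair left out, and pairs 1 and 2 or 3 and 4 alone. Depth, 19581993 to 34779433 counts, limits low genes; intervals cover counting error only. Mitochondrial loci took 13.1% to 27.7% of counts.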

Additional observations from a re-analysis of the deposited data

Results flagged for a closer look

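A library was marked as standing apart where its gap to the nearest of the other 3 libraries of its group took up more of the group's range than Dixon's critical value at the 95% level allows. Of 358 groups, from 143 genes and 36 lists, 47 held such a library. Chance marks about 5% of groups where values are normally distributed. The rule was applied to CPM without a log, some of them near 0, so the chance share here is not known. Genes and lists are not independent. Unrecombined library 1 stood apart as the highest for Lama2 (517 CPM against 249 to 275), Csn2 (224 CPM against 0 to 1.40) and Csn1s1 (138 CPM against 0.111 to 6.97). Unrecombined library 1 stood apart as the lowest for Gli1 (2.10 CPM against 6.74 to 7.28). Unrecombined library 2 stood apart as the highest for Nat8l (63.1 CPM against 0.391 to 8.05), Slco4a1 (3.91 CPM against 0.819 to 1.10) and Gnai1 (39.5 CPM against 21.7 to 22.8). It was also the highest for Krt7 (122 CPM against 34.6 to 43.5), Ly6a (153 CPM against 44.5 to 59.5) and Kdr (25.0 CPM against 9.07 to 10.9). Further genes with it as the highest were Flt1 (42.7 CPM against 18.5 to 21.5), Ngfr (8.60 CPM against 0.774 to 1.53) and Dll1 (16.6 CPM against 8.34 to 8.54). To these came Cxcl14 (38.1 CPM against 15.8 to 19.6), Bpifa2 (39807 CPM against 0.0352 to 700.4) and summed over the salivary gland list (95928 CPM against 69.4 to 1427). Unrecombined library 2 stood apart as the lowest for Egr3 (79.9 CPM against 168 to 172). Unrecombined library 3 stood apart as the highest for Itga2 (119 CPM against 44.2 to 55.7) and Il33 (274 CPM against 14.2 to 47.8). Unrecombined library 4 stood apart as the highest for Anks1b (1.60 CPM against 0.332 to 0.457), Top2a (96.1 CPM against 9.25 to 11.3) and Ccnb2 (8.24 CPM against 2.66 to 2.81). It was also the highest for Lgr6 (26.7 CPM against 15.5 to 16.6), Fzd7 (125 CPM against 75.8 to 75.8) and Gas1 (80.1 CPM against 28.9 to 32.8). Further genes with it as the highest were Mki67 (172 CPM against 18.6 to 19.0) and summed over the proliferation list (1098 CPM against 484 to 503). Unrecombined library 4 stood apart as the lowest for Tnfaip6 (66.0 CPM against 192 to 197). Recombined library 1 stood apart as the highest for Tbx15 (0.556 CPM against 0 to 0.0360), Pecam1 (34.1 CPM against 15.3 to 16.7) and Csn2 (312 CPM against 0 to 0.162). It was also the highest for Csn1s1 (198 CPM against 0.288 to 1.78) and Kit (330.2 CPM against 95.7 to 127). Recombined library 1 stood apart as the lowest for Hhip (9.52 CPM against 45.4 to 51.7), Cdh3 (31.7 CPM against 89.7 to 98.8) and summed over the EMT factors list (242 CPM against 423 to 432). Recombined library 2 stood apart as the highest for Kcnn3 (0.756 CPM against 0 to 0.106), Ly6a (56.8 CPM against 19.8 to 21.0) and Hsd11b1 (6.30 CPM against 0.0528 to 0.688). It was also the highest for Bpifa2 (9088 CPM against 0 to 672) and summed over the salivary gland list (21606 CPM against 51.6 to 1343). Recombined library 3 stood apart as the highest for Col3a1 (30.2 CPM against 14.8 to 16.9), Runx1 (1054 CPM against 523 to 599) and Sox4 (187 CPM against 75.5 to 87.0). Recombined library 3 stood apart as the lowest for Sfrp2 (5.33 CPM against 12.8 to 13.4). Recombined library 4 stood apart as the highest for Top2a (89.5 CPM against 19.7 to 25.3) and summed over the erythroid list (8.86 CPM against 2.43 to 3.05).

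Entries that name several loci were not used in the tests; they held 0.0617% to 0.101% of the counts of a library.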

How the results depend on the processing

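Of 164 genes, none that passed in the main fit or in an alternative had opposite directions in these fits. Sign changes of genes that passed in neither fit were not counted. The fit with no replicate block called 532 loci (310 higher, 222 lower) in place of 984, and 3 rather than 11 hormone-sensing genes fell; with all 12 libraries and no replicate block it was 4. DESeq2 called 1953 loci (1022 higher, 931 lower), all 984 among them. With pairs left out in turn, 557 to 1013 loci passed, 274 to 594 higher and 273 to 419 lower, and 4 to 9 Hedgehog components rose. With pairs 1 and 2 alone 302 loci and 3 Hedgehog components were higher. The difference between the pairs of each number series called 0 loci (880 at an unadjusted p under 0.05), 119 with DESeq2 and 10 without the filter. The share of calls that were higher was 57.8% with all pairs and 45.4% with pairs 1 and 2 alone, 49.2% without pair 4, 62.7% with pairs 3 and 4 alone. The cause of these differences was not tested. Scaling moved the median of all loci from -0.05 to -0.09 (upper quartile) at most. Of 164 genes, 41 lost their call without the block, 6, 22, 22 and 27 without pair 1, 2, 3 or 4, and 9 without the filter. The fit without the block changed no other call among them. Depth limits genes such as Anks1b, with 9 to 48 counts in an unrecombined library.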

Other observations

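Further genes of inflammation and the matrix fell in recombined cells. Tnfaip6, a hyaluronan-binding protein, had 1.62 to 4.60 CPM in recombined and 66.0 to 197 CPM in unrecombined libraries and fell by 5.49 ± 0.17 (adjusted p = 8.2e-07). Enpp2, autotaxin, fell by 4.88 ± 0.20 (6.43e-06) and Hc, complement C5, by 4.32 ± 0.30 (0.000107). For all 3 the groups did not overlap. The cytokine gene Il6 fell by 1.52 ± 0.30 (adjusted p = 0.015), or 0.0558 and 0.0874 without pair 1 and 2. Tnfaip6, Enpp2 and Hc were chosen after their values were seen.

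Among transcription factors Runx1, which acts in several blood and gland lineages, had 523 to 1054 CPM in recombined and 283 to 437 CPM in unrecombined libraries and rose by 0.88 ± 0.15, adjusted p = 0.00738 (0.0707 without the block). Sox4 rose by 1.11 ± 0.20, adjusted p = 0.0108 (0.0537 without pair 4, 0.0513 without the block). Of the interferon-responsive genes Gbp2 fell by 1.04 ± 0.21 (adjusted p = 0.0173; 0.0725 and 0.0535 without pair 2 and 3) and Oasl2 by 1.36 ± 0.27 (0.0173; 0.0934 and 0.066 without pair 2 and 4). Ngfr, a neurotrophin receptor, had 5.33 to 49.2 CPM in recombined and 0.774 to 8.60 CPM in unrecombined libraries and rose by 2.74 ± 0.67, adjusted p = 0.0396 (0.156 and 0.0602 without pair 3 and 4, 0.0983 without the filter). Ucp1, the uncoupling protein of brown fat, had 0.703 to 7.34 CPM in recombined and 0.107 to 1.11 CPM in unrecombined libraries; its rise of 2.85 ± 0.73, adjusted p = 0.049, did not hold without any 1 of the 4 pairs (0.0907, 0.1, 0.178 and 0.157). Without the block Gbp2, Oasl2, Il6, Ngfr and Ucp1 did not pass (0.0915, 0.11, 0.0633, 0.163 and 0.155).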
